A study of Homo sapiens with 45 samples.

Results

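Of the 17440 distinct CTCF regions listed in HEK293T cells treated with DMSO, 4083 overlapped no listed region of MBD2, MBD3 or TET1 in the same treatment. They are the CTCF regions without a partner, 23.4% of the list (95% Wilson interval 22.8 to 24.0), and they were chosen by overlap alone, at a minimum of 1 bp. The interval covers counting only: with the MBD2 and MBD3 lists shortened to the length of the TET1 list, 7391 regions (42.4%) had no partner. The other CTCF regions had 1 partner in 4974 cases, 2 partners in 4367 and all 3 in 4016. The label of the set holds as stated for peak lists: a partner that bound below the detection limit of its own list counts as absent here.

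The study measured genome occupancy by ChIP-seq in HEK293T, a human embryonic kidney line. Cells received the solvent DMSO, 30 µM BPK25 or 0.5 mM IAA for 72 h. BPK25 is an electrophilic compound reported elsewhere to lower NuRD subunits, and IAA is an auxin, in answer to which cells break down proteins fused to a degron. Each treatment had 3 libraries for CTCF, MBD2, MBD3, TET1 and input DNA, 45 in all, which the authors pooled into 1 peak list per treatment and antibody. No value below therefore has a replicate error, and differences between lists were not tested. Intervals cover counting over regions only. The growth protocol also speaks of edited derivatives of the line, and the labels do not say which libraries, if any, came from them. Peak lists carry no expression, so the cell type was not checked against markers.

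CTCF is a zinc-finger protein that holds the anchors of chromatin loops and acts at insulators. MBD2 and MBD3 are mutually exclusive subunits of NuRD, a complex that moves nucleosomes and removes acetyl groups from histones. MBD2 binds methylated CpG, while mammalian MBD3 largely lacks that ability. TET1 oxidises 5-methylcytosine. A CTCF region that lacks all 3 is thus one where, in these lists, neither the NuRD subunits nor TET1 were found beside the insulator protein.

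CTCF enrichment was low at regions without a partner. Their median CTCF fold, the authors' ratio of pileup to local background at the summit, was 3.64, with quartiles of 3.00 and 4.38. Regions with 1, 2 and 3 partners had medians of 4.13, 4.54 and 5.31. The folds of regions without a partner reached from 1.33 to 8.16, and those of regions with all 3 from 1.16 to 24.96, so the groups overlapped over most of their range. A −log10 q under 5 was found for 1429 regions without a partner (35.0%), against 8.14% of regions with any. These folds come from the list that the rule reads and are a description.

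**Figure D1:**
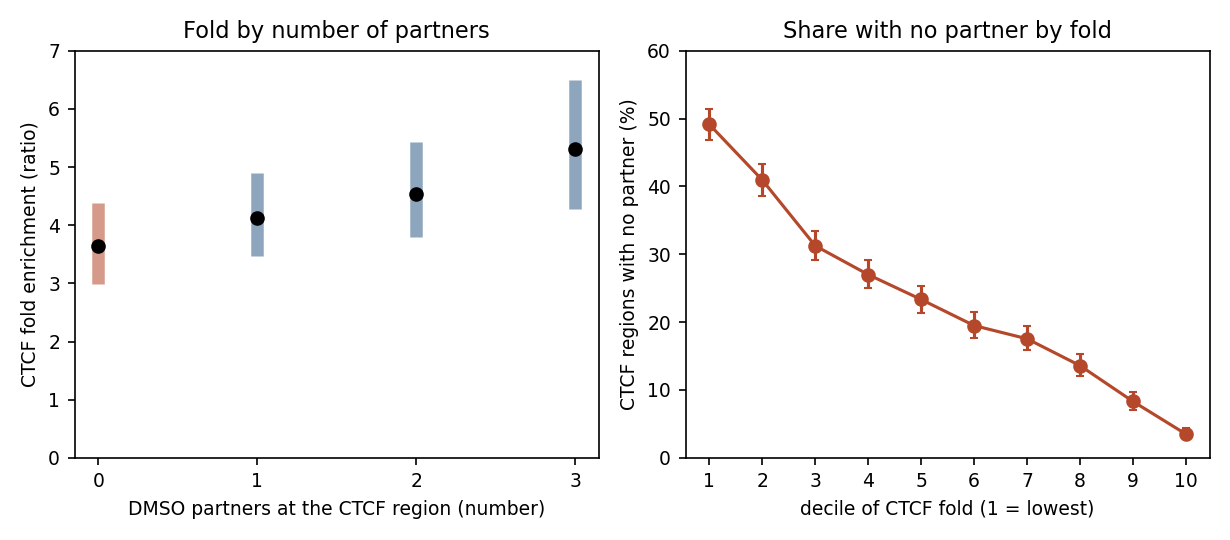
Left, the authors' CTCF fold (ratio) by number of DMSO partners, with the median as a point and the quartiles as a bar; the median is 3.64 with no partner and 5.31 with 3. Right, the share of CTCF regions without a partner (%) in each decile of CTCF fold, with 95% Wilson intervals; it is 49.1% in the lowest and 3.498% in the highest decile.

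Going up the deciles of CTCF fold, each of 1744 regions, the share without a partner was lower at each step. It was 49.1% (46.8 to 51.5) in the lowest decile, 23.3% (21.4 to 25.4) in the fifth and 3.498% (2.73 to 4.47) in the highest. The lowest 2 deciles held 857 and 714 of the regions without a partner. The highest decile, with folds of at least 6.37, held 61. At a fold of 5 or more, 481 of 5475 CTCF regions had no partner.

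The number of sequenced fragments at the summit, the pileup, also ranked with the absence of a partner. It was recovered from fold and significance for 4071 of the 4083 regions. Its median was 29 fragments (quartiles 22 and 36) without a partner, 36 with 1, 41 with 2 and 51 with 3. Among CTCF regions with a pileup under 20 fragments, 74.7% (71.5 to 77.5) had no partner. The share was 25.02% (23.8 to 26.3) at 30 to 39 fragments and 3.07% (2.11 to 4.46) at 75 or more. Within the highest decile of fold, the median pileup was 39 without a partner and 56 with one.

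The local background, the pileup that the caller expected at the site, was also low at these regions. Its median was 6.72 fragments without a partner, 7.77 with 1, 8.18 with 2 and 8.77 with 3. The lowest value in the CTCF list, 4.35 fragments, is the level of the genome as a whole and is called the floor here. Regions without a partner stood at the floor in 398 cases (9.75%), against 3.93% of regions with a partner. Over 3 times the floor lay 247 of them (6.05%), against 10.6% of regions with a partner. Of all CTCF regions at the floor 43.1% (39.96 to 46.3) had no partner, and of those over 3 times the floor 14.8% (13.2 to 16.6).

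At a fixed pileup the order by background was the opposite. Among regions with 30 to 39 fragments, 18.2% (13.5 to 24.1) at the floor had no partner, and 29.7% (27.2 to 32.3) at 2 to 3 times the floor. At over 3 times the floor it was 48 of 93, or 51.6% (41.6 to 61.5). Fold and pileup thus both ranked with the absence of a partner, and background did so in opposite directions with and without the pileup held in a range. With the pileup held, a higher background is a lower fold, so this order repeats that by fold. The median fold in this range was 6.36 at the floor and 2.40 at over 3 times the floor. The least pileup listed close to the floor was 14 fragments in the CTCF list, and 13, 15 and 17 in those of MBD2, MBD3 and TET1. The part that each list's limit plays in these shares was not tested.

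**Figure D2:**
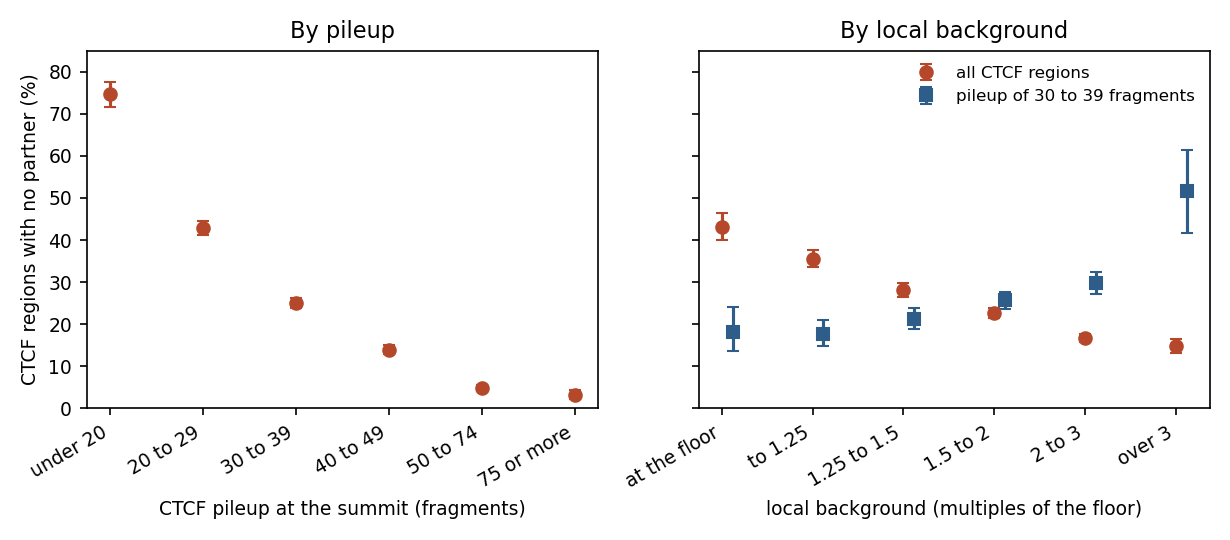
Share of CTCF regions without a partner (%) by pileup at the summit in fragments (left) and by local background in multiples of the floor (right), with 95% Wilson intervals. The share is 74.7% under 20 fragments and 3.07% at 75 or more; over background it declines for all regions (circles) but increases from 18.2% to 51.6% among regions of 30 to 39 fragments (squares).

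The strongest CTCF regions without a partner were of moderate size. The highest fold, 8.16, was found on chr16:22012277-22012611 (hg19, as all positions here), with 57 fragments over a background of 6.11. The nearest partner region, of MBD3, lay 54.6 kb away. Regions on chr21:16235218-16235444 and on chr8:20898689-20898924 each had a fold of 7.86 from 41 fragments at the floor. The first had an MBD2 region 1.62 kb away, with a fold of 4.16. The second had a TET1 region 14.9 kb away and no other CTCF region within 205 kb. On chr10:71389809-71390026 the fold was 7.69 from 45 fragments, with an MBD2 region at 8.97 kb.

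The other regions of highest fold stood in similar settings. On chr9:141042049-141042310 the fold was 7.67, and on chr17:44501767-44501984 it was 7.54. The latter was 138 kb from the nearest partner region. Chromosome 19 held a pair with a fold of 7.48 each, from 10755496 to 10755716 and from 45086247 to 45086488, both with 39 fragments at the floor. None of these 8 regions was in any treated list, where 1.37% of the whole set and 5.7% of all DMSO CTCF regions were found. So few regions cannot show a share lower than these.

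The pileup was recovered for 1 of the 3 weakest regions. The lowest fold on chromosomes 1 to 22 and X, 1.33, was on chr10:42387728-42387951, where an MBD3 region lay 325 bp away. On chr18:18511471-18511753 the fold was 1.60, from 185 fragments over a background of 115. There a low fold thus did not come with few fragments. On chrX:58575718-58576147 the fold was 1.67.

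Regions without a partner were narrow and mostly had 1 summit. Their median width was 230 bp (quartiles 209 and 263), against 240, 256 and 296 bp with 1, 2 and 3 partners, and together they covered 1.01 Mb. More than 1 summit was listed in 40 of them (0.980%), against 5.45% of regions with all 3 partners. The widest, of 788, 783 and 767 bp, lay on chr13:25245144-25245931, on chr1:223823454-223824236 and on chr2:47386192-47386958. The last of these was the one region of the set with 3 summits, and its fold was 3.30. Of those with 2 summits, the highest folds lay on chr1:202312835-202313194 (fold 4.63) and on chr19:1671983-1672581 (fold 4.46).

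The share of CTCF regions without a partner varied between chromosomes. On chromosomes 1 to 22 and X it was 23.3% (22.7 to 24.0), or 4024 of 17252. It was lowest on chromosome 19, at 17.4% (14.6 to 20.5), followed by chromosome 17 at 18.3% (16.0 to 20.9) and chromosome 1 at 19.5% (17.7 to 21.4). It was highest on chromosome 21, at 30.1% (23.4 to 37.7), chromosome 16 at 28.98% (25.3 to 33.0) and chromosome 9 at 28.9% (25.2 to 32.8). Intervals lay below the common share on 3 chromosomes (1, 17 and 19) and above it on 4 (3, 9, 16 and 21). Neighbours in this order mostly had overlapping intervals.

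Fold did not rank with these shares in 1 way. Chromosome 19 had the highest median CTCF fold, 4.73, while chromosome 17 had a median fold of 4.24. Median background was 7.89 fragments over all 23 chromosomes. It was lower on the 4 with intervals above the common share, at 6.43, 6.43, 7.17 and 6.51 on chromosomes 3, 9, 16 and 21. Of those below the common share, chromosomes 1 and 17 had a higher background, 8.77 and 9.64, and chromosome 19 a lower one, 7.30. The remaining chromosomes had backgrounds on both sides of 7.89. Among CTCF regions with a fold of 4.31 or more, the middle of the list, 12.4% of regions on chromosome 19 had no partner, equal to the 12.4% of all 23 chromosomes, while below it the shares were 25.7% and 34.4%. On chromosome 17 both shares were low, at 9.09% above and 26.9% below this fold. On chromosomes 9 and 16 both were high, with 20.1% and 17.9% above and 39.5% and 40.7% below it. On chromosome 21 the share above it was high, at 23.7%, while the 36.4% of 77 regions below it was near the 34.4% of all 23. Chromosome 21 had 76 CTCF regions above it, 18 of them without a partner.

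**Figure D3:**
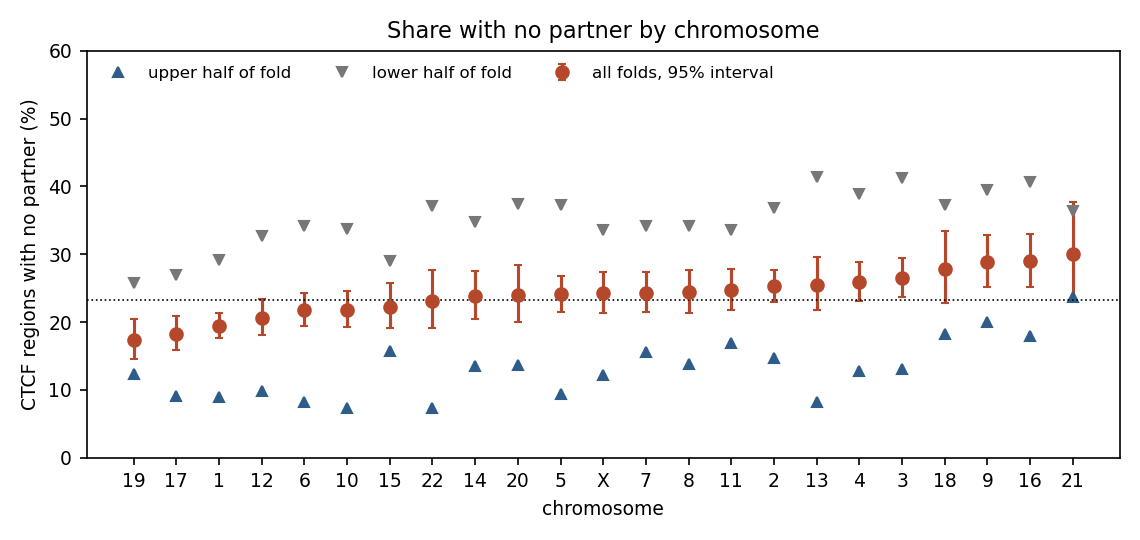
Share of CTCF regions without a partner (%) for each of 23 chromosomes, ordered by that share, with 95% Wilson intervals (circles) and the share above and below the middle CTCF fold of 4.31 (triangles). The dotted line is the share over all 23, 23.3%; chromosome 19 is lowest at 17.4% and chromosome 21 highest at 30.1%.

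Another 59 regions without a partner lay off these chromosomes, on 25 sequences that were chromosome Y, alternate haplotypes or unplaced contigs. The unlocalised contig of chromosome 9 named gl000199 held 15 of them, and chromosome Y held 6. Their median fold was 3.18, and 18 had a background over 3 times the floor.

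CTCF regions without a partner stood somewhat apart from other CTCF regions. Their median distance to the next CTCF region was 41.2 kb, against 35.5, 33.2 and 28.5 kb with 1, 2 and 3 partners. Within 10 kb of another CTCF region lay 21.0% of them, against 27.6% of those with all 3 partners. Read along each chromosome, the CTCF region after one without a partner also had none in 25.3% of cases (24.0 to 26.6), against 22.7% (21.996 to 23.4) after one with a partner. The shares were farthest apart where the next region lay within 10 kb, at 27.4% (23.4 to 31.7) against 19.8% (18.0 to 21.6). At 10 to 100 kb they were 23.2% and 21.9%, and at over 100 kb 26.7% (24.8 to 28.8) and 24.5% (23.4 to 25.6), with overlapping intervals in both ranges.

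Read in order, the 4024 regions without a partner on chromosomes 1 to 22 and X stood in runs of 1 to 7. Of these regions, 2251 had a partnered CTCF region on either side, or the end of the list. The rest were 575 pairs, 133 runs of 3, 31 of 4, 10 of 5, 6 of 6 and 2 of 7. On these chromosomes 23.3% of all CTCF regions had no partner, and the runs that this share alone would give were not computed. The longest runs were of 7. One spanned 754 kb on chr21:31816629-32571122, with folds from 2.64 to 5.23, and the other spanned 2719 kb on chr18:74421805-77141131, with folds from 3.35 to 6.12. A run of 6 on chr16:21768404-22012611 ended at the region of highest fold.

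Counted in fixed windows of 1 Mb, the densest held 9 regions without a partner of 19 CTCF regions, on chr12:52000001-53000000. Their folds were 3.11 to 5.40 and their pileups 17 to 50 fragments. A window on chr1:228000001-229000000 held 8 of 15, all with a fold of at most 3.23. Then came 14 windows with 7, the first in order on chr1:120000001-121000000, where 7 of 17 CTCF regions had no partner. The 3 windows named by position thus also held CTCF regions with a partner.

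Partner regions were seldom close by. The median distance from a CTCF region without a partner to the nearest MBD2, MBD3 or TET1 region was 37.0 kb (quartiles 11.7 and 87.2). For each partner alone the median was 46.0 kb to MBD2, 71.9 kb to MBD3 and 112 kb to TET1, in the order of the lengths of those lists. A partner region within 1 kb was found for 138 (3.38%), within 10 kb for 22.2% and within 100 kb for 78.1%. The next partner region that did not overlap was somewhat nearer for CTCF regions with a partner, at a median of 29.1 kb, with 4.41% within 1 kb and 26.1% within 10 kb. Distance was not recorded for 5 regions, on contigs that had no partner region.

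**Figure D4:**
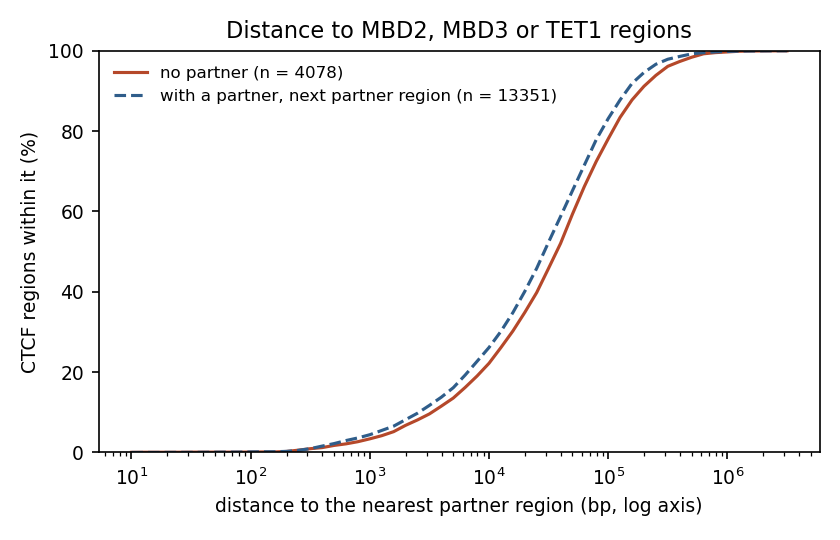
Share of CTCF regions (%) that have a partner region within the distance on the log axis (bp), for 4078 regions without a partner (solid) and for the next non-overlapping partner region of 13351 regions with one (dashed). The solid line lies to the right; the medians are 37.0 and 29.1 kb.

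For the 138 regions within 1 kb of a partner region, the least distance between the summits of such a pair was 216 bp and the median 801 bp. These distances are largely set by the choice of regions, since overlap is excluded and the gap is at most 1 kb. At 90 of the 138 regions (65.2%) the nearest partner region lay at another CTCF region, against 66.9% over the whole set and 77.3% of all 33339 partner regions. The median CTCF fold of the 138 was 3.03, below the 3.64 of the whole set. MBD2 lay within 1 kb of 98, MBD3 of 76 and TET1 of 49.

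The overlap limit itself separated few regions. Just inside the set, a region on chr1:223823454-223824236 missed a TET1 region by 5 bp, one on chr7:31215275-31215472 an MBD3 region by 11 bp, and one on chrX:70521256-70521457 an MBD3 region by 28 bp. Their CTCF folds were 3.37, 3.02 and 2.17. Just outside it, a region on chr1:78406805-78407021 overlapped a TET1 region by 6 bp, and one on chr12:39711910-39712113 an MBD3 region by 7 bp. A further region on chr1:466495-466712 overlapped a TET1 region by 10 bp. The CTCF folds of these 3 were 2.36, 2.79 and 3.99. Within 100 bp of a partner region lay 4 regions of the set, and within 500 bp 71.

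At the far end, the set reached regions with no partner for over 1 Mb. Off chromosomes 1 to 22 and X the largest distance was 7684 kb. On those chromosomes the farthest lay on chr3:164924590-164924792, 2034 kb from the nearest partner region, with a fold of 6.11 and 39 fragments. Its closest CTCF neighbour, on the same chromosome from 165572430 to 165572686, was also without a partner, at 1386 kb. On chromosome 16 a region from 63323819 to 63324018 was 1828 kb away (fold 4.49), and on chromosome 1 one from 73088961 to 73089178 was 1216 kb away (fold 4.58).

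The treated lists were not read by the rule, and they show which of these regions overlapped a region listed in treated cells, for any antibody. In any of the 8 treated lists were 56 of the 4083 regions, or 1.37% (1.06 to 1.78), against 5.7% of all DMSO CTCF regions. Of the 56, 21 were in a CTCF list, and 35 were in a list of MBD2, MBD3 or TET1 but in no CTCF list. With 1, 2 and 3 partners the shares were 2.53%, 4.35% and 15.5% (14.4 to 16.6). Where the local background was within 3 times the floor it was 37 of 3824, or 0.968% (0.703 to 1.33), against 3.79% of all such CTCF regions and 1.74%, 3.08% and 10.6% of those with 1, 2 and 3 partners. The share in at least 1 of the 8 treated lists was thus ordered by the number of partners in both sets. Of the 37 regions, 19 were in the BPK25 TET1 list. In the IAA lists alone, at this background, the order did not hold: the share was 0.131% without a partner and 0.0891% with 1.

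By list, the CTCF list under BPK25 held 16 regions without a partner (0.392%), against 1.27% of all DMSO CTCF regions. The BPK25 lists of MBD2, MBD3 and TET1 held 11, 12 and 22, or 0.269%, 0.294% and 0.539%, against 1.42%, 1.1% and 3.84%. Under IAA the CTCF list held 6 (0.147%), against 0.952%. With partners counted by summits within 150 bp it was 13 of 4275 regions without one (0.304%). The IAA lists of MBD2 and MBD3 held 1 and 2, against 0.631% and 0.442% of all, and that of TET1 held 0 of 4083, which allows a share of up to 0.0735%, against 0.459% of all. In each of the 8 lists the share without a partner was thus below the share of all DMSO CTCF regions. Against regions with 1 partner, the intervals were apart in the BPK25 TET1 list only, which held 1.43% (1.13 to 1.80) of those regions. The BPK25 CTCF list held 0.523% (0.357 to 0.765) with 1 partner, against 0.392% (0.241 to 0.636) without. In the IAA MBD3 list the share with 1 partner was the lower, at 0.0201% against 0.0490%.

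With the low background alone, the lists differed more from each other. The BPK25 lists of CTCF, MBD2, MBD3 and TET1 held 3, 9, 3 and 19 of the 3824 regions without a partner, against 0.308%, 0.764%, 0.218% and 2.96% of all such CTCF regions. The TET1 list held 0.497% (0.318 to 0.775) of them, against 1.18% (0.903 to 1.54) with 1 partner and 8.78% (7.87 to 9.79) with all 3. For CTCF under BPK25 the share without a partner, 0.0785% (0.0267 to 0.230), was not apart from those with 1 or 2 partners, at 0.178% (0.0903 to 0.351) and 0.102% (0.0395 to 0.261). The IAA CTCF list held 4 (0.105%, 0.0407 to 0.269), against 0.263% of all, 0.0668% with 1 partner and 0.869% with all 3. The 3 partner lists under IAA (MBD2, MBD3, TET1) held 0, 1 and 0, against 0.00642%, 0.0128% and 0.0128% of all, so no difference was detectable there.

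**Figure D5:**
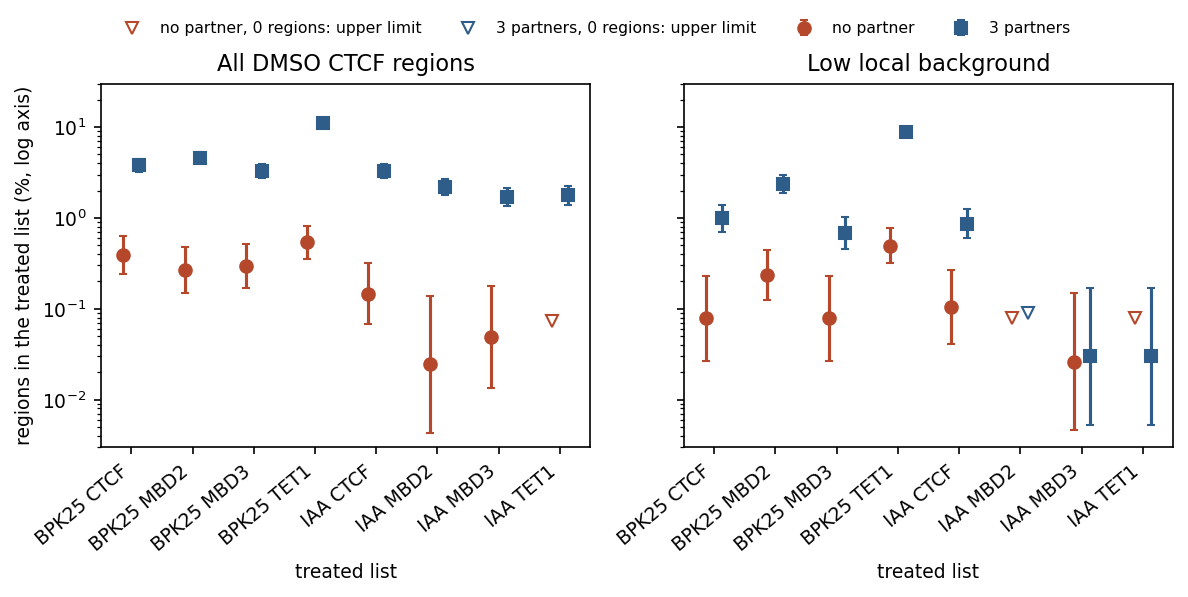
Share of DMSO CTCF regions found in each treated list (%, log axis), for regions without a partner (circles) and with all 3 (squares), with 95% Wilson intervals; open triangles mark the upper limit where 0 regions were found. Left, all regions, where the BPK25 TET1 list holds 0.539% and 11.2%; right, regions whose local background was within 3 times the floor, where it holds 0.497% and 8.78%.

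The contrast was also present in the lowest and highest quartiles of CTCF fold. In the lowest quartile of fold 2.04% (1.49 to 2.79) of regions without a partner and 11.3% (10.1 to 12.6) of those with a partner were in a treated list. In the highest quartile it was 4 of 308 (1.30%, 0.506 to 3.29) against 9.25% (8.40 to 10.2). With low background alone, the lowest quartile gave 1.22% (0.793 to 1.88) against 3.37% (2.63 to 4.31), and the highest 1.30% against 7.35% (6.56 to 8.22). Folds still differed within a quartile: in the highest, they ended at 8.16 without a partner and at 24.96 with one. Pileup differed too, with medians of 22 fragments without a partner and 29 with one in the lowest decile.

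Treated lists had lower floors than the DMSO lists. They held between 95 and 777 regions each, against 17440 in the DMSO CTCF list. The floor of the CTCF list was 0.256 fragments under BPK25 and 0.937 under IAA, or 5.89% and 21.6% of the DMSO CTCF floor. Scaled by the CTCF ratios, the median DMSO pileup without a partner was 1.71 and 6.25 fragments. The least pileup listed close to the floor was 5 fragments for CTCF under BPK25 and 8 under IAA. The floors of the BPK25 lists of MBD2, MBD3 and TET1 were 49.5%, 7.92% and 20.4% of those in DMSO. These ratios of floors stand in for depth, which the lists do not give. At the depth set by the BPK25 CTCF ratio, 80.5 of 4071 regions without a partner and with recovered pileup (1.98%) were expected in that list. Found were 11 (0.270%). At the IAA CTCF ratio 674 (16.6%) were expected, and 6 were found (0.147%). With all 3 partners, fewer regions than expected were also found in both CTCF lists. It was 88 against 507 expected of 3906 under BPK25, and 57 against 2342 under IAA. The expected numbers scale DMSO pileups of regions that had passed the limit of the DMSO list, so they may be too high. The cause of these differences was not tested, and the part of depth in the other treated lists was not tested.

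The regions listed for CTCF under BPK25 came mostly from 1 contig. Of the 16, 11 lay on the chromosome 9 contig gl000199, where 15 of 69 CTCF regions had no partner. Their local background there was recovered for 9 regions and was 63.7 to 174 fragments, and folds reached from 1.58 to 2.998. On this contig, regions with and without a partner were listed for CTCF under BPK25 alike in share, 41 of 54 (75.9%, 63.1 to 85.4) and 11 of 15 (73.3%, 48.0 to 89.1). On chromosomes 1 to 22 and X there were 5 of 4024, or 0.124% (0.0531 to 0.291), and at a low background 3 of 3824, against 0.308% of all such CTCF regions.

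These 5 regions lay on chromosomes 7, 10, 20 and X, and they were chosen after their values were seen, because they are few. One on chr10:42540583-42540817 had a DMSO fold of 1.85, with 287 fragments over a raised background of 154. Its folds were 3.84 under BPK25 and 2.45 under IAA. It was the single region of the set listed for CTCF under both treatments. The chromosome X region described above, of fold 1.67 in DMSO, had 2.89 for CTCF and 2.60 for MBD3 under BPK25. On chr20:56089373-56089616 a DMSO fold of 3.24 stood beside 6.29 from 8 fragments. On chr10:53149198-53149401 a DMSO fold of 6.09 stood beside 4.53 from 5 fragments, and on chr7:61210089-61210335 one of 3.29 beside 4.36, also from 5. Of the 5 BPK25 values, 3 thus rested on 8 fragments or fewer.

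Under IAA, the 6 CTCF regions were the one on chromosome 10 and 5 others. On chr6:7339462-7339661 the DMSO fold was 3.74, and the IAA fold was 14.9 from 35 fragments with summits 43 bp apart. On chr3:36771051-36771258 the folds were 6.19 and 6.71. A second region of that chromosome, from 16090249 to 16090495, had 4.06 in DMSO, 8.69 for CTCF under IAA and 5.52 for TET1 under BPK25. On chr11:18429305-18429536 the IAA region of fold 16.6 overlapped by 46 bp and its summit lay 331 bp away. On chr2:31919508-31919767 the summits were 167 bp apart. These last 2 pairs thus shared an edge rather than a summit. Fold depends on the depth of a list, so folds in different lists do not give a change.

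The TET1 list under BPK25 held 22 of these regions, 0.539% of the set against 3.84% of all DMSO CTCF regions. It was the longest treated list, with 777 regions. By the rule, none of the 22 had a TET1 region in DMSO. Of them, 21 were in no other treated list, 21 had their summit within 150 bp of the CTCF summit and 19 had a low background. Their TET1 folds ran from 3.70 to 7.86 with a median of 4.60, against 5.26 over the whole list. The highest lay on chr2:104575726-104575927, with 19 TET1 fragments and a DMSO CTCF fold of 3.58. Next was one on chr16:11626076-11626300, with a TET1 fold of 7.43 and a CTCF fold of 5.87. Regions on chr4:123498036-123498335 and on chrX:101323047-101323280 each had a TET1 fold of 6.48. The first of these had a DMSO MBD2 region of fold 7.08 at 700 bp, the second no partner region within 148 kb.

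The NuRD subunits were found at few of these regions under BPK25. On chr5:209348-209703 the MBD3 fold was 10.7 from 17 fragments and the MBD2 fold 3.501. On chr14:75462130-75462365 the folds were 6.55 for MBD3 and 3.85 for MBD2, and a DMSO MBD3 region lay 185 bp away. On chr4:189368112-189368848 an MBD3 fold of 6.33 came with summits 400 bp apart. Of the 12 MBD3 regions, 7 lay on the contig gl000199. Over all 8 lists, 62 of 70 pairs of a treated region and a region without a partner had summits within 150 bp (88.6%), against 86.8% at regions with all 3 partners.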

How the data were processed

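Each peak list joins replicates 1 to 3 of a group and sets them against control, per the labels' file names. The submitters' processing notes name the build hg19, the peak caller MACS2 2.1.2, the aligner Bowtie2 2.3.4, and FastQC, SAMtools, bedtools and deepTools. Settings of the caller: not given in the sources used here. For a peak, each of the 12 deposited lists gives a linear fold ratio at the summit, the −log10 of its p-value and q-value, a score of 10 times the −log10 q (not used) and the summit's offset, all the authors' values. The depth of single libraries is unknown.

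Sub-peaks with the same start and end were joined into 1 region with the values of the largest −log10 p. Fold was read as (pileup + 1)/(background + 1) and −log10 p as the Poisson upper tail, and solved for whole pileups below 400 within 0.02%. This gave 17255 of 17440 CTCF regions, leaving 34 with a −log10 p above 150 and 151 others unsolved. Overlap, distance and recovery were tested on simulated data. The members, lists and alternatives were chosen with earlier results of these data known. Regions named are the 8 of highest and 3 of lowest fold, the 4 farthest from a partner, the 3 widest and 3 with most summits, the 12 of highest treated fold, 3 on either side of the overlap limit and the 3 fullest windows, on chromosomes 1 to 22 and X. Shares carry 95% Wilson intervals, and a limit for 0 is 3 counts of the total. No genome or annotation of hg19 was used here, so planned descriptions of sequence and genes were not made. Python 3.11.15, numpy 2.4.6, pandas 2.3.3, SciPy 1.17.1 and matplotlib 3.10.9 were used.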

Additional observations from a re-analysis of the deposited data

How the results depend on the processing

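Of 56 recomputed values over 8 alternatives, 33 stayed within the interval of the reported value or, for the number of regions, within 1.5 times it, and 23 did not. The causes were not tested. Some moves had a direction fixed in advance, so the tally is no measure of robustness. A fold limit of 5 must raise the median fold, and leaving out regions within 1000 bp of a partner must raise the distance. Taking peaks with a −log10 q of 5 or more moved the median fold from 3.64 to 4.10, the share in any treated list from 1.37% to 0.906% and the median distance to a partner from 37.0 to 43.7 kb. With a CTCF fold of 5 or more there were 481 regions (8.79%) with a median fold of 5.42 and a distance of 39.5 kb. Listed for CTCF under BPK25 was 1 of these 481 (0.208%, 0.0367 to 1.17). On chromosomes 1 to 22 and X the BPK25 share was 0.124%. With partners counted by summits within 150 bp, 24.5% had none, 1.99% were in a treated list and the distance was 34.1 kb, and the share listed for CTCF under IAA went from 0.147% to 0.304%, inside its interval. With no partner within 1000 bp, 22.6% qualified, the BPK25 share was 0.203% and the distance 39.5 kb. With MBD2 and MBD3 lists shortened to the length of the TET1 list, 7391 regions (42.4%) had no partner, with a median fold of 3.75 and a distance of 57.1 kb. With a background within 3 times the floor, chosen after seeing the data, 24.5% had none, with a median fold of 3.72, a BPK25 share of 0.0785% and 0.968% in any treated list. Counting overlaps of at least 50% of the shorter region moved nothing past its interval.

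No paired analysis was possible because each list pools replicates 1 to 3 and its columns carry no replicate number. Leaving out a replicate was not possible for the same reason. The depth of the treated lists limits what an absence from them shows. Descriptions of sequence and gene context were not run.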
